A study of Mus musculus with 24 samples.

Results

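The genes of cholesterol and fatty acid synthesis were examined in parental and dormant mouse cancer cells, from Cy3 arrays that report how much RNA of each gene the cells held. The 35 genes were chosen by name as regulators (3), enzymes of the sterol branch (18), enzymes of the fatty acid branch (10) and carriers of sterols (4), out of 22907 gene symbols with a probe. A probe was matched to 34 of them through its RefSeq accession, and no probe was matched to Acat2, so that 17 sterol genes were measured. All 24 arrays came from cells in culture. B16-M (3 arrays) is parental melanoma, a GFP-carrying B16F1 line. B16-D (4 arrays) is a line that had been recovered from dormancy in vaccinated mice and grown again in vitro. B16-D-733 (4 arrays), B16-D-735 (3) and B16-D-739 (3) carry numbers that were read as the second generation of dormant melanoma cells, which was isolated from a brain site. M0-p20 (4 arrays) and J365-p20 (3) are leukemia cells, read as the parental DA1-3b line and as its derivative from a long dormancy. The readings of the last 5 names are inferred, since the labels give only melanoma or leukemia cells. Each group is 1 line, and the labels do not say whether its arrays came from separate cultures, although the study speaks of repeated experiments, so the p-values measure the spread between these RNA samples. In B16-D-733, the titles of replicates 1 and 3 carry the same number and both lie on slide 3, so they may be 1 RNA sample. Their log2 difference had an SD of 0.195 over 17805 genes, the smallest of 18 pairs of arrays within the melanoma lines, where the others ran from 0.289 to 0.719. On 23 arrays between 46.0% and 55.8% of spots were well above background, against 90.4% on B16-D replicate 2. That array was left out, which leaves 16 melanoma and 7 leukemia arrays. Values are log2 signals relative to the 75th percentile of each array, and a difference of lines is the difference of their means on this scale. They can be compared between lines for 1 gene and not between genes.

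Cells build cholesterol from acetyl-CoA through mevalonate, the isoprenoids, squalene and lanosterol. SREBP-2, the product of Srebf2, turns on this chain when membrane sterols are low, and SREBP-1, from Srebf1, acts more on fatty acid synthesis. Insig1 holds SREBP precursors in the endoplasmic reticulum when sterols are plentiful and is itself an SREBP target. Rapidly dividing tumor cells use both branches to supply membranes.

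The cell types were checked against their markers. All 7 melanocyte markers were above background on every melanoma array. On leukemia arrays Tyrp1, Dct and Mlana were above it on none, Mitf, Sox10 and Tyr on all, and Pmel on 3 of 7. All 7 myeloid markers were above background on every leukemia array. Of the 16 melanoma arrays used, Ptprc, Laptm5 and Vav1 were above it on none, Itgam on all, Csf2rb on 14, Mpo on 2 and Spi1 on 1. Of the 34 genes, 33 were well above background on every array. Scd1 was above it on every melanoma array and on no leukemia array.

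Promoters are shown for the genes that passed the test in the same direction in at least 2 comparisons and that the RefSeq promoter table (GRCm38.p6) holds. Against B16-M, Tm7sf2 passed as lower in 3 dormant lines and Msmo1 in 2, and Acss1 passed as higher in 2. Dhcr7 passed as higher in B16-D-735 against B16-M and B16-D, and in B16-M against M0-p20. The 250 bases before the start of transcription are given 5′ to 3′ on the strand of the gene. Capitals mark CCAAT, the NF-Y box, and GGGCGG, the GC box, on either strand, where they read ATTGG and CCGCCC. The regions are chr19:6067851-6068100 (minus strand), chr8:64733579-64733828 (minus), chr2:150668241-150668490 (minus) and chr7:143829964-143830213 (plus). Dhcr7 has 3 starts in the table, and the one with CCAAT is printed, a choice made after the search.
Tm7sf2: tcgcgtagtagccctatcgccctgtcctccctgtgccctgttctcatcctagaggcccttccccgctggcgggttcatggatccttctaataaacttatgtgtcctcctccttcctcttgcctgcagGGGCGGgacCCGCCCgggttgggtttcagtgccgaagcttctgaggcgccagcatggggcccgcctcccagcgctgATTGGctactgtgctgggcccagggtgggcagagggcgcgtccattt
Msmo1: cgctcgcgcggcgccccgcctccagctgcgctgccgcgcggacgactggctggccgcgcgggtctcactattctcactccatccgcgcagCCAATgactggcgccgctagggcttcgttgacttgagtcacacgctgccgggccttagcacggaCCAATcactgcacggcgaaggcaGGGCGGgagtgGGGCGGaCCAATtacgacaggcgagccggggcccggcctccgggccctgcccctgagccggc
Acss1: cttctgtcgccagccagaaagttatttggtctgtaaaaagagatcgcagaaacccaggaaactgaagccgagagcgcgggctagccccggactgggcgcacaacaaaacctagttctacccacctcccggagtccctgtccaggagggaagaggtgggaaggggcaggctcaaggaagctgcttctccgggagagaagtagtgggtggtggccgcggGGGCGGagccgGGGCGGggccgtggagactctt
Dhcr7: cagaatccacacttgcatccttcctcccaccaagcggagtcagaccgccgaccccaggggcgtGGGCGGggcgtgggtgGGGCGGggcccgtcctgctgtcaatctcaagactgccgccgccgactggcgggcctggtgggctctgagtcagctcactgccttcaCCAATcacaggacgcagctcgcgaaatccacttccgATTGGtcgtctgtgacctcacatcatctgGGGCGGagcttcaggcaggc
The Msmo1 window holds 3 CCAAT boxes and 2 GC boxes, and that of Tm7sf2 1 and 2. The Dhcr7 window holds 2 and 3, and that of Acss1 no CCAAT box and 2 GC boxes. Of 27 member genes in the table, 20 have CCAAT in the window of at least 1 start, among them 14 of 15 sterol genes and 2 of 7 fatty acid genes. Over all 27025 genes of the table the share was 37.5%, and over all 32851 promoters 33.9%. GGGCGG was in 23 of the 27 genes (14 of 15 sterol genes) against 35.4% of all genes and 32.7% of all promoters. CACGTG, the E-box, was in 5 of 27 against 6.86% of all genes and 6.02% of all promoters. All motifs were searched on both strands, and none of them contains another. The sterol regulatory element was searched as TCACNCCAC. It was found in 1 member, Hmgcs1, as TCACCCCAC at chr13:119690214-119690222, against 1.22% of all genes and 1.05% of all promoters. A match describes these letters only. The table did not hold Fdps, Fdft1, Sqle, Scd1, Scd2, Fads1, Stard4 and Npc1.

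The median of the sterol branch lay below B16-M in each dormant melanoma line, least so in B16-D-735, and the median of the fatty acid branch lay nearer to 0 in each. The branches were not tested against each other. The median difference of the 17 sterol genes was -0.46 in B16-D, -0.40 in B16-D-733, -0.15 in B16-D-735 and -0.57 in B16-D-739. The medians of all genes tested were -0.04, 0.03, -0.01 and 0.00. The difference was below 0 for 16, 15, 15 and 16 of the 17 sterol genes, while 53.9%, 46.3%, 50.9% and 49.6% of all genes lay below 0. The medians of the 10 fatty acid genes were -0.13, 0.00, -0.03 and 0.03 in the same order, with 7, 5, 6 and 4 of the 10 below 0. These 4 comparisons share the 3 arrays of B16-M and are not independent of each other. For each array, the median of the sterol genes relative to their B16-M means was 0.02, -0.13 and 0.12 in B16-M (replicates 0, 1 and 2). It was -0.32, -0.48 and -0.49 in B16-D (replicates 0, 1 and 3), and -0.48, -0.37, -0.30 and -0.40 in B16-D-733 (replicates 0 to 3). In B16-D-735 it was 0.00, -0.31 and -0.37 (replicates 0, 1 and 2), and in B16-D-739 -0.48, -0.77 and -0.55. All arrays of B16-D, B16-D-733 and B16-D-739 lay below the 3 of B16-M, whereas B16-D-735 replicate 0 lay within them. Within slides that held both lines, the sterol median was -0.52 and -0.52 for B16-D, -0.42, -0.31 and -0.40 for B16-D-733, and -0.61, -0.59 and -0.55 for B16-D-739. For B16-D-735 it was -0.32, 0.17 and -0.43, so that it changed sign on slide 2, where 5 of 17 genes lay below 0. The fatty acid median within slides was -0.20 and 0.04 for B16-D (8 and 5 of 10 genes below 0), and ran from -0.06 to 0.09 for B16-D-733, from -0.09 to 0.21 for B16-D-735 and from -0.08 to 0.13 for B16-D-739.

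**Figure D1:**
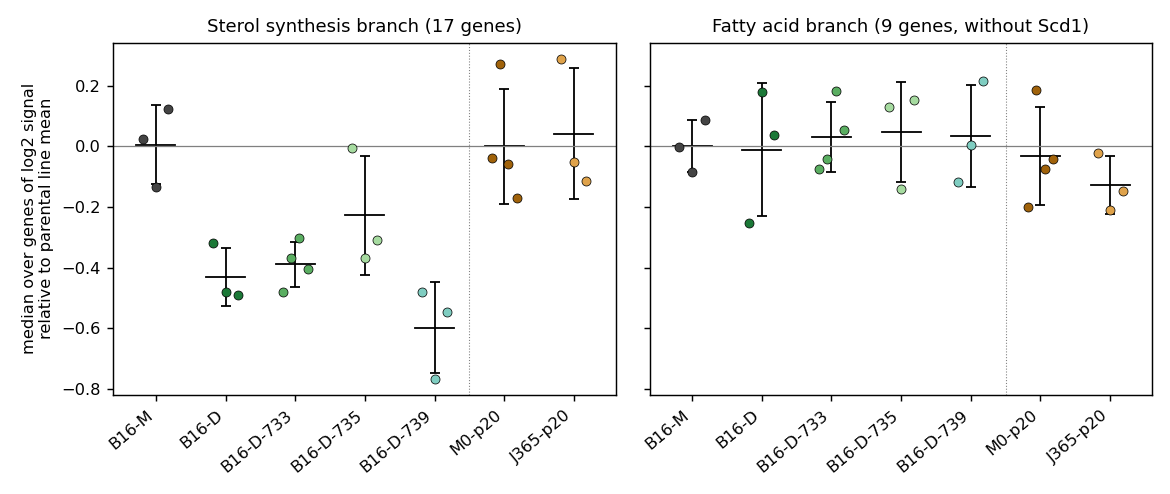
Median over the genes of each branch of the log2 signal relative to the mean of the parental line (B16-M for melanoma, M0-p20 for leukemia), on the vertical axis, by line. Points are arrays, lines and bars are means and SD. The fatty acid panel is over 9 genes, without Scd1. In the sterol panel the arrays of B16-D-739 lie between -0.77 and -0.48, below the B16-M arrays, and in the fatty acid panel the lines overlap.

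Among the single genes, 4 members fell in B16-D and none rose, against 3.60% of the 24312 genes and unnamed transcripts tested that passed in either direction and 1.60% that were lower (limma, adjusted p under 0.05). They were Fdps, Tm7sf2, Msmo1 and Abca1. In B16-D-733, 5 of 34 passed (3 lower, 2 higher) against 5.57% of all (2.39% lower, 3.18% higher). In B16-D-735, 3 of 34 passed (2 lower, 1 higher) against 5.03% (1.97% lower, 3.07% higher). In B16-D-739, 8 of 34 passed (7 lower, 1 higher) against 3.71% (1.55% lower, 2.15% higher). The share of members was thus 11.8%, 14.7%, 8.82% and 23.5%. Of the sterol branch alone 3, 3, 2 and 6 of 17 genes passed, all lower except Dhcr7, which was higher in B16-D-735. Before adjustment, 10, 10, 5 and 12 sterol genes were lower with p under 0.05, and 0, 1, 1 and 1 were higher.

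**Figure D2:**
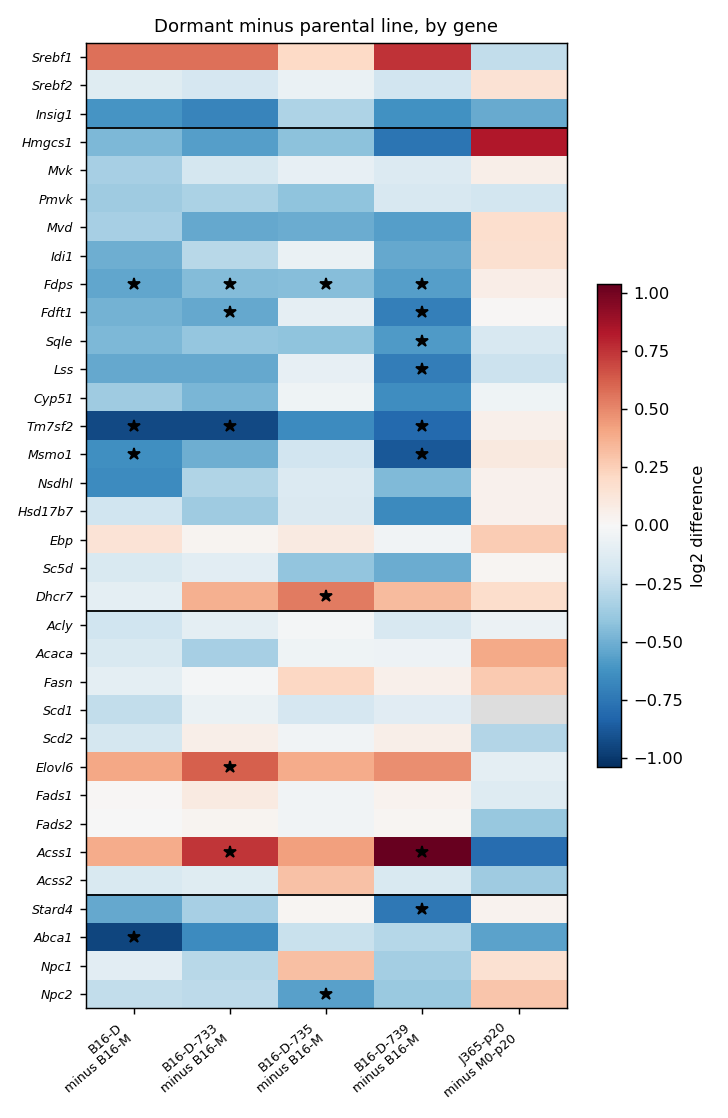
Log2 difference of each dormant line from its parental line (color) for 34 genes (rows, grouped as regulators, sterol branch, fatty acid branch and transport). Stars mark an adjusted p under 0.05 and the gray cell is Scd1, which was not above background in leukemia. The sterol rows are mostly blue in the 4 melanoma columns, with Ebp and Dhcr7 as exceptions, and no star stands in the leukemia column.

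The regulators did not pass the test in any dormant line, although Insig1 passed under several alternatives. Srebf1 was at 3.01, 3.03 and 3.54 in B16-M and at 3.37, 4.11 and 3.81 in B16-D, with overlap. Its difference was 0.57 ± 0.23 (SE) in B16-D, 0.57 in B16-D-733, 0.21 in B16-D-735 and 0.75 in B16-D-739, with adjusted p of 0.22, 0.17, 0.83 and 0.11 (limma). Insig1 was at -0.02, 0.40 and 0.54 in B16-M and at -0.66, 0.01 and -0.25 in B16-D, and the highest B16-D array lay just above the lowest of B16-M. Its differences were -0.61, -0.68, -0.32 and -0.63 in the 4 lines, with adjusted p of 0.13, 0.054, 0.53 and 0.13 (limma). With the replicate number as a block, Insig1 passed in B16-D-733 and B16-D-739, at -0.71 (adjusted p = 0.020) and -0.63 (adjusted p = 0.048, limma). Whether this block reflects a pairing of the arrays or the slide was not tested. With quantile normalization, for probes above background on every array and without B16-M replicate 0, Insig1 also passed in B16-D-733. With slide as a block Insig1 passed in B16-D-733 and Srebf1 in B16-D-739, and with dated titles as a block, that is, whether the title of an array carries a date, Insig1 passed in B16-D, B16-D-733 and B16-D-739. Srebf2 was at 0.85, 0.69 and 0.81 in B16-M and at 0.44, 0.96 and 0.59 in B16-D. These 2 lines overlapped, and the differences of Srebf2 ran from -0.20 to -0.07 over the 4 lines.

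In the first steps of the sterol branch, from acetyl-CoA to the isoprenoids, Fdps fell in all 4 dormant melanoma lines. Fdps encodes farnesyl diphosphate synthase, whose product feeds both cholesterol and protein prenylation. It was at 6.11, 5.94 and 6.17 in B16-M, at 5.45, 5.57 and 5.58 in B16-D and at 5.48, 5.70, 5.57 and 5.71 in B16-D-733. It was at 5.72, 5.53 and 5.62 in B16-D-735 and at 5.54, 5.39 and 5.58 in B16-D-739. Every dormant array was below every B16-M array. The differences were -0.54 ± 0.11, -0.45 ± 0.10, -0.44 ± 0.11 and -0.57 ± 0.11 (SE), or 1.45-, 1.37-, 1.36- and 1.48-fold, with adjusted p of 0.013, 0.016, 0.028 and 0.0075 (limma). Hmgcs1, the cytosolic HMG-CoA synthase, was at 4.52, 4.11 and 4.52 in B16-M and at 4.31, 3.77 and 3.67 in B16-D, with overlap. Its differences were -0.47, -0.57, -0.42 and -0.76 and did not pass (adjusted p 0.30, 0.14, 0.37 and 0.081, limma). In B16-D-739 Hmgcs1 passed with the replicate block (adjusted p = 0.024). The mevalonate kinases Mvk and Pmvk, the decarboxylase Mvd and the isomerase Idi1 were below B16-M in all 4 lines, by -0.57 to -0.07. None of these 4 passed in the fit without the block, and Idi1 passed with it in B16-D-739 (-0.53, adjusted p = 0.036, limma). Idi1 also passed with it in B16-D, where arrays of the same number correlated with B16-M at 0.28 and 0.04. Pmvk passed in B16-D-735 with quantile normalization and with slide as a block.

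At the commitment to sterols, Fdft1, the squalene synthase, fell in 2 lines. It was at 3.17, 2.91 and 3.21 in B16-M, at 2.40, 2.63, 2.67 and 2.58 in B16-D-733, and at 2.47, 2.22 and 2.48 in B16-D-739. Both lines lay below all B16-M arrays. The differences were -0.53 ± 0.12 and -0.71 ± 0.13 (adjusted p = 0.024 and 0.0076, limma), and a second probe of Fdft1 gave -0.66 and -0.79. In B16-D the arrays of Fdft1 also lay below B16-M, with a difference of -0.49 and an adjusted p of 0.061 (limma). Sqle, squalene epoxidase, was at 4.16, 4.10 and 4.35 in B16-M and at 3.93, 3.72 and 3.57 in B16-D, without overlap, and its difference of -0.46 did not pass (adjusted p = 0.12, limma). It passed in B16-D-739 at -0.59 (adjusted p = 0.047), where the block put it at 0.058. Lss, which folds squalene epoxide into lanosterol, was at 2.68, 2.57 and 2.48 in B16-M and at 1.94, 1.76 and 1.87 in B16-D-739. Those arrays stood apart, and the difference was -0.72 ± 0.18 (adjusted p = 0.047, with the block 0.067). With slide as a block the calls of Sqle and Lss in B16-D-739 were kept. With dated titles as a block the call of Sqle there was lost. Another pair of Lss probes gave -0.73 and -0.92.

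Among the enzymes that turn lanosterol into cholesterol, Tm7sf2 and Msmo1 fell. Tm7sf2, a sterol C14 reductase, was at 1.78, 1.64 and 2.02 in B16-M. It was at 1.19, 0.80 and 0.65 in B16-D and at 0.94, 0.87, 1.20 and 0.50 in B16-D-733. It was at 1.22, 1.10 and 1.15 in B16-D-735 and at 1.10, 0.86 and 1.05 in B16-D-739. The highest dormant array was thus below the lowest of B16-M. Tm7sf2 was 1.91-fold lower in B16-D and in B16-D-733 (-0.93 ± 0.18, adjusted p = 0.012, and -0.93 ± 0.17, adjusted p = 0.0047) and 1.75-fold lower in B16-D-739 (-0.81 ± 0.18, adjusted p = 0.023). In B16-D-735 its difference of -0.65 had an adjusted p of 0.057 (limma), and Tm7sf2 passed there with slide, the replicate number or dated titles as a block. It also passed there with the mean of all probes and for probes above background on every array. With dated titles as a block its calls in B16-D and B16-D-733 were lost. A second probe of Tm7sf2 gave -0.83, -0.96 and -0.81 in the 3 lines that passed. Msmo1, a methylsterol monooxygenase, was at 5.21, 5.17 and 5.25 in B16-M, at 4.89, 4.47 and 4.37 in B16-D and at 4.53, 4.21 and 4.25 in B16-D-739. None of these dormant arrays reached B16-M. The differences were -0.63 ± 0.16 (adjusted p = 0.045) and -0.88 ± 0.16 (adjusted p = 0.0059, limma), and a second probe gave -0.56 and -0.91. With dated titles as a block the call of Msmo1 in B16-D was lost. In B16-D-733 and B16-D-735 Msmo1 differed by -0.51 and -0.20 and did not pass. In B16-D-733 it passed with normexp, quantile normalization, the mean of all probes, a fit of only the lines compared and for probes above background on every array.

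Dhcr7 and Ebp did not follow the branch. Dhcr7, the last reductase of the chain, was at 0.97, 1.05 and 0.82 in B16-M and at 1.72, 1.33 and 1.42 in B16-D-735. All B16-D-735 arrays were higher, and Dhcr7 rose by 0.54 ± 0.13 (1.45-fold, adjusted p = 0.033, limma). Its differences were -0.10 in B16-D, 0.37 in B16-D-733 and 0.33 in B16-D-739, none past the threshold. With normexp Dhcr7 passed in B16-D-733. Ebp, a sterol isomerase, differed by -0.04 to 0.14 over the 4 lines. The remaining members were Cyp51, the lanosterol demethylase, Nsdhl and Hsd17b7, which act in demethylation at carbon 4, and Sc5d, a desaturase. They were below B16-M in all 4 lines, from -0.66 to -0.04, with adjusted p of 0.073 or more (limma). With slide as a block, Nsdhl passed in B16-D, B16-D-733 and B16-D-739, and Cyp51 in B16-D-733 and B16-D-739. Cyp51 also passed in both of its lines with the mean of all probes. Hsd17b7 passed with dated titles as a block and with the replicate block in B16-D-739 (-0.66, adjusted p = 0.031).

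**Figure D3:**
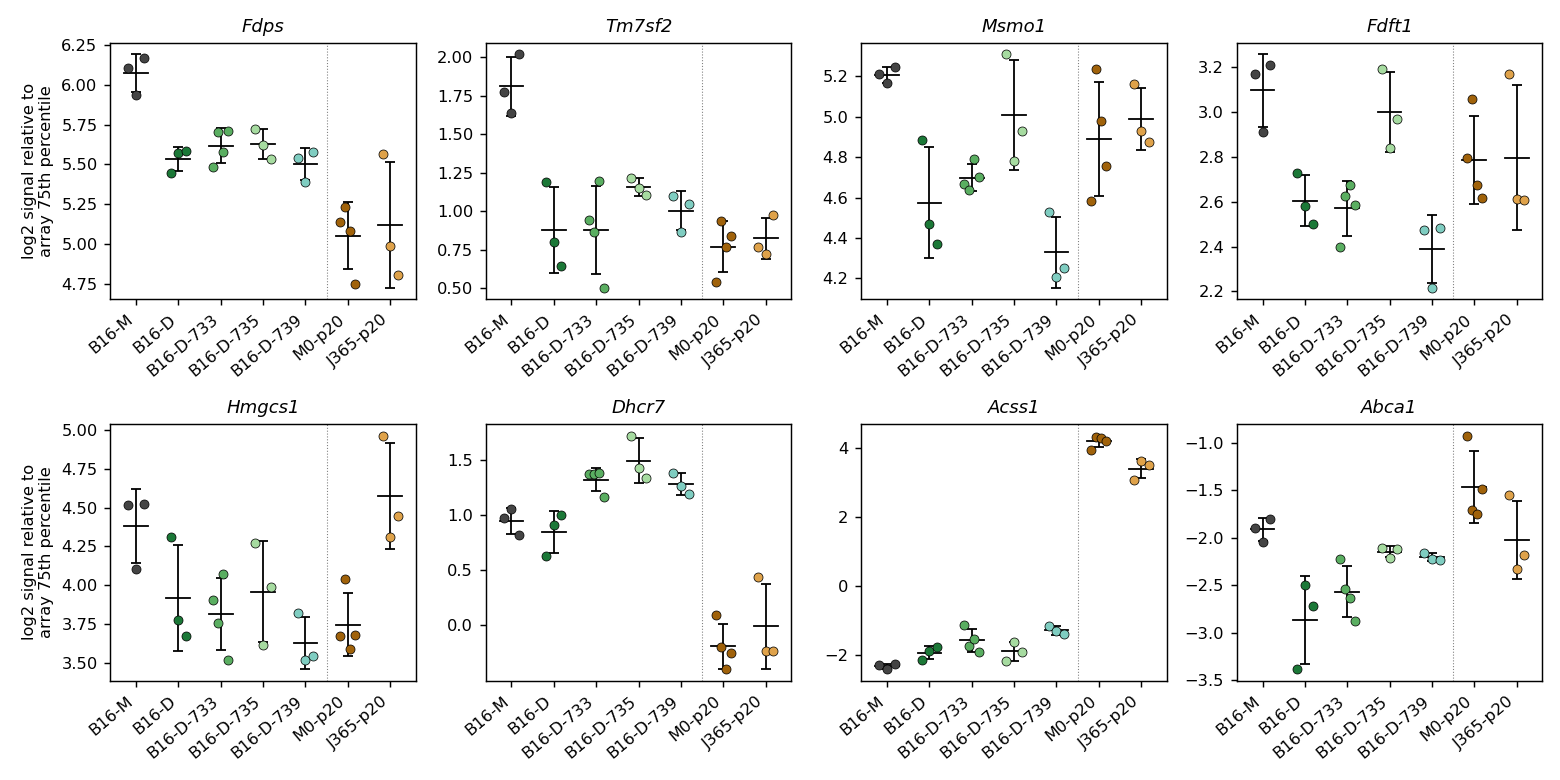
Log2 signal relative to the 75th percentile of each array (vertical axes, which differ between panels) for 8 genes in 7 lines. Points are arrays, lines and bars are means and SD. All Fdps and Tm7sf2 points of the 4 dormant melanoma lines lie below those of B16-M, and Hmgcs1 is lower in the dormant melanoma means and higher in J365-p20 than in M0-p20.

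In the fatty acid branch, Acss1 and Elovl6 rose and the core enzymes showed small differences by the probes used. Acss1, the mitochondrial acetyl-CoA synthetase, was at -2.29, -2.39 and -2.25 in B16-M. It was at -1.13, -1.73, -1.52 and -1.89 in B16-D-733 and at -1.15, -1.28 and -1.39 in B16-D-739. Every array of both lines was higher than B16-M, by 0.74 ± 0.18 (1.67-fold, adjusted p = 0.027) and 1.04 ± 0.19 (2.05-fold, adjusted p = 0.0067, limma). Acss1 was also higher by 0.39 in B16-D and 0.43 in B16-D-735, which did not pass. Elovl6, which extends C16 fatty acids, was at 1.96, 1.87 and 2.06 in B16-M and at 2.49, 2.49, 2.68 and 2.66 in B16-D-733, without overlap. It rose by 0.62 ± 0.14 there (adjusted p = 0.018, limma) and its differences were 0.40, 0.38 and 0.48 in B16-D, B16-D-735 and B16-D-739. Fasn, the fatty acid synthase, was at 6.60, 6.46 and 6.61 in B16-M and at 6.36, 6.53 and 6.49 in B16-D. These overlapped, and the difference was -0.10 ± 0.16 (adjusted p = 0.80, limma). Scd1, the stearoyl-CoA desaturase, was at 1.17, 1.28 and 1.49 in B16-M and at 0.40, 1.64 and 1.14 in B16-D. The 3 arrays of B16-D thus enclosed those of B16-M. The citrate lyase Acly, the carboxylase Acaca, the desaturases Scd2, Fads1 and Fads2, and Acss2, the cytosolic and nuclear acetyl-CoA synthetase, differed by -0.34 to 0.31 from B16-M over the 4 lines, with none past the threshold. Other probes of Acaca gave -0.52 to 0.005 over these lines, and the other probe of Acly gave -0.42 to -0.19. Those of Fads1, Fads2 and Acss2 gave -0.21 to 0.19. Acss2 passed in B16-D-735 with slide as a block and without B16-M replicate 2.

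Of the sterol carriers, a different gene passed in each of 3 lines, and Abca1 and Npc2 passed in further lines under alternatives. Abca1, which exports cholesterol to lipoproteins, was at -1.89, -2.04 and -1.80 in B16-M and at -3.38, -2.50 and -2.71 in B16-D. Abca1 was lower on every B16-D array, by -0.95 ± 0.20 (1.94-fold, adjusted p = 0.020, limma), with replicate 0 the lowest. The other probe of Abca1 was not above background on any of these arrays. By the first probe, Abca1 differed by -0.66, -0.23 and -0.29 in the other lines. In B16-D-733 it passed for probes above background on every array and without B16-D-733 replicate 0. Stard4, a cytosolic sterol carrier, was at 1.36, 1.33 and 1.47 in B16-M and at 0.67, 0.67 and 0.59 in B16-D-739. It fell there by 0.74 ± 0.15 on the log2 scale (adjusted p = 0.015, limma), while its other probe gave -0.13, and with the mean of all probes its call was lost. Npc2, a lysosomal cholesterol carrier, was at 4.41, 4.14 and 4.22 in B16-M and at 3.81, 3.73 and 3.55 in B16-D-735. All B16-D-735 arrays were lower, by -0.56 ± 0.12 (adjusted p = 0.012, limma). Npc1, its membrane partner, differed by -0.35 to 0.31 and did not pass.

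These calls depended on single arrays. In B16-D, no member passed without B16-M replicate 2, 2 passed without B16-M replicate 0 or 1 or B16-D replicate 1, and none in a fit of the 6 arrays of both lines alone, where 86 genes passed in all. Fdps held its call without each other array, and Abca1 lost it without any 1 B16-M array. Msmo1 lost its call without each array but B16-D replicate 0, and Tm7sf2 without B16-M replicate 2 or B16-D replicate 1. In B16-D-733, Tm7sf2 held without each single array. Fdps lost its call there without B16-M replicate 0 or 2, Fdft1 without these or B16-D-733 replicate 0, 1 or 3, Elovl6 without B16-M replicate 0 or 1 or B16-D-733 replicate 2 or 3, and Acss1 without any 1 B16-M array or B16-D-733 replicate 0 or 2. Without B16-M replicate 0 or 2, 2 members passed in that line, and without B16-M replicate 1 or B16-D-733 replicate 2 or 3, 3 members. With replicates 1 and 3 of B16-D-733 averaged as 1 array, an alternative added after seeing the data, 4 members passed, and Fdft1 lost its call (adjusted p = 0.052, limma). With the arrays whose titles carry a date as a block, Fdps alone of the 5 held its call in B16-D-733. That block also added calls of Lss and Stard4 in B16-D, of Lss in B16-D-733 and of Elovl6 in B16-D-739. In B16-D-735, none passed without B16-M replicate 0 or B16-D-735 replicate 2 or in a fit of the 6 arrays. Fdps was also lost there without B16-M replicate 2 or B16-D-735 replicate 1, and Dhcr7 without B16-M replicate 1 or 2 or B16-D-735 replicate 0. In B16-D-739, Acss1, Msmo1, Fdft1 and Fdps held their calls without each single array, and Lss and Sqle lost theirs without any 1 array. Tm7sf2 and Stard4 lost their calls without B16-M replicate 2 or any 1 B16-D-739 array, where 4 members passed, and Tm7sf2 also without B16-M replicate 0, where 5 passed. The 6 arrays alone gave 3 calls in B16-D-739. With slide as a block, Msmo1 lost its call in B16-D, where Fdft1 gained one. With the replicate number as a block, Abca1 lost its call in B16-D and Dhcr7 in B16-D-735, 2 comparisons not read as paired. All called differences had the same sign within each slide that held both lines.

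Other processing also ended or added calls against B16-M. Fdps lost its call in B16-D, B16-D-733 and B16-D-735 with normexp and without a filter, and in all 4 lines with only the lines compared. With normexp, Fdft1 and Elovl6 were also lost in B16-D-733, and Lss, Sqle and Tm7sf2 in B16-D-739. Without a filter, Msmo1 was also lost in B16-D, Fdft1, Elovl6 and Acss1 in B16-D-733, Dhcr7 in B16-D-735, and Lss, Sqle and Tm7sf2 in B16-D-739. With the mean of all probes, Abca1 and Msmo1 lost their calls in B16-D. With B16-D replicate 2 kept, Abca1 was lost in B16-D, Fdft1 in B16-D-733, Fdps and Dhcr7 in B16-D-735, and Lss and Sqle in B16-D-739. With quantile normalization no call was lost, and Sqle passed in all 4 lines, Npc2 in all 4, Hmgcs1 in B16-D-733 and B16-D-739, Fdft1 in B16-D, Tm7sf2 in B16-D-735, and Cyp51 and Hsd17b7 in B16-D-739.

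The dormant lines were compared with each other to ask whether the second generation differed from B16-D. No member passed for B16-D-733 or B16-D-739 (limma, with 1 and 5 members at an unadjusted p under 0.05), against 0.481% (0.411% higher, 0.0699% lower) and 0.308% (0.230% higher, 0.0782% lower) of all genes. In B16-D-735, 4 members rose above B16-D and none fell, against 8.0% of all genes in either direction, 4.07% higher and 3.93% lower. Dhcr7 was at 0.63, 0.90 and 1.00 in B16-D and at 1.72, 1.33 and 1.42 in B16-D-735, a rise of 0.65 ± 0.13 (adjusted p = 0.0096, limma). Abca1 was at -2.11, -2.12 and -2.21 in B16-D-735, above all B16-D arrays, by 0.72 ± 0.20 (adjusted p = 0.045). Stard4 was at 0.47, 1.03 and 1.07 in B16-D and at 1.63, 1.32 and 1.27 in B16-D-735, a rise of 0.55 ± 0.15 (adjusted p = 0.047), and its other probe gave 0.74. Acss2 was at -0.83, -0.80 and -0.85 in B16-D and at -0.39, -0.32 and -0.38 in B16-D-735. These narrow groups stood apart by 0.46 ± 0.10 (adjusted p = 0.016, limma). The sterol median of B16-D-735 over B16-D was 0.26, with 13 of 17 genes above 0, against 55.0% of all genes and a median of 0.04. Dhcr7 held its call with normexp, without a filter and with the mean of all probes, while Acss2 and Abca1 lost theirs under each of these and Stard4 under the last 2. Dhcr7 also held its call without each single array. Abca1 and Stard4 lost theirs without any 1 B16-D-735 array or B16-D replicate 0, Abca1 also without B16-D replicate 3, Stard4 also without B16-D replicate 1, and Acss2 without B16-D-735 replicate 1 or 2. With slide or the replicate number as a block, the calls of Abca1 and Stard4 were also lost, and with dated titles that of Abca1. Abca1 was also lost with quantile normalization and with B16-D replicate 2 kept. Thus 1 member passed without B16-D-735 replicate 1 or 2, 2 without its replicate 0, and none in a fit of the 6 arrays. Slide as a block added calls of Fdft1 and Npc1, the replicate block of Idi1, and quantile normalization of Fdft1 and Msmo1. The summed relative signal of the fibroblast markers was higher in B16-D-735, 1.09 to 1.51 on its arrays against 0.604 to 0.749 in B16-M and 0.508 to 0.638 in B16-D. Col1a2, whose probe was the brightest of the list, and Col1a1 differed by 0.74 and 0.95 from B16-M and did not pass. Dcn was above background on the 3 arrays of B16-D-735, at -0.830, -1.990 and -2.999, and on no B16-M array and none of the B16-D arrays used. It entered the fit only through B16-D-735 and is given without a p. Pdgfra and Lum were above background on none of the B16-D-735 arrays, and Pdgfra differed by -2.35 from B16-M, which did not pass. The part of these markers in the B16-D-735 results was not tested. In B16-D-739 the fibroblast sum was lower, 0.277 to 0.335, and Col1a2 fell by 1.32 on the log2 scale against B16-M (adjusted p = 0.021, limma). Of 5 brain markers, Mbp alone rose in B16-D-733, by 2.14 against B16-M (adjusted p = 0.0038, limma). Gfap differed by -0.64 and Snap25 by 0.07 there, neither past the threshold, and Olig2 and Rbfox3 were above background on none of these arrays. The brain sum was 7.34 to 8.58 in B16-D-733, where the probe of Mbp was the brightest of the list, against 3.32 to 5.83 in B16-M. In B16-D-739 Mbp differed by -1.55 (adjusted p = 0.051, limma). The part of these markers in the results of either line was likewise not tested.

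In leukemia, no member passed between J365-p20 and M0-p20 (limma, 33 tested), against 1.07% of all 22968 genes tested (0.488% higher, 0.579% lower), and 3 members had an unadjusted p under 0.05. The sterol median was 0.05, with 13 of 17 genes above 0, and the fatty acid median -0.13, while the median of all genes was -0.02. Hmgcs1 was at 3.67, 4.04, 3.59 and 3.68 in M0-p20 and at 4.97, 4.31 and 4.45 in J365-p20. Its arrays did not overlap, and the difference was 0.83 ± 0.22 (adjusted p = 0.26, limma). Acss1 was at 3.93, 4.30, 4.29 and 4.19 in M0-p20 and at 3.07, 3.60 and 3.48 in J365-p20. It was lower on every J365-p20 array, by -0.79 ± 0.19 (adjusted p = 0.22). Insig1 was at -1.09, -0.74, -1.09 and -1.14 against -1.81, -1.58 and -1.22, a difference of -0.52 (adjusted p = 0.62). Srebf1 was at 3.88, 4.72, 4.20 and 4.20 against 3.81, 3.96 and 4.22, and Srebf2 at 0.72, 1.28, 0.88 and 0.73 against 1.14, 0.99 and 1.04, and both overlapped. Sqle was at 4.81, 5.24, 4.96 and 4.85 against 4.79, 4.84 and 4.78. Fasn was at 5.24, 5.25, 5.18 and 5.38 against 5.88, 5.19 and 5.53. Abca1 was at -0.92, -1.70, -1.74 and -1.48 against -1.55, -2.33 and -2.18, a difference of -0.56 ± 0.28 (adjusted p = 0.85, limma). Each of these 3 overlapped between the lines. Scd1 was not well above background on any leukemia array, at -6.76, -5.49, -6.84 and -6.89 in M0-p20 and at -7.26, -6.89 and -6.88 in J365-p20. Within slides the sterol median of J365-p20 over M0-p20 was -0.26, 0.46 and -0.05, so its sign depended on the slide.

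The change from parental to dormant cells in melanoma (B16-D minus B16-M) was then set against that in leukemia (J365-p20 minus M0-p20) in 1 fit of all 23 arrays. The difference of the 2 changes passed for 3 of 33 members, against 1.36% of 20818 genes (0.658% above 0, 0.706% below). Hmgcs1 changed by -0.47 in melanoma and by 0.83 in leukemia, a difference of -1.30 ± 0.30 (adjusted p = 0.033, limma). Tm7sf2 changed by -0.93 and 0.05, a difference of -0.99 ± 0.23 (adjusted p = 0.039). Acss1 changed the opposite way, by 0.39 and -0.79, a difference of 1.18 ± 0.26 (adjusted p = 0.023). The difference was below 0 for all 17 sterol genes measured, with a median of -0.40, against 53.3% of all genes and a median of -0.03. The fatty acid median was 0.14. None of the 3 calls remained without B16-M replicate 0, B16-D replicate 1 or 3, M0-p20 replicate 2 or J365-p20 replicate 0. Acss1 alone remained without B16-M replicate 2, M0-p20 replicate 3 or J365-p20 replicate 3. With normexp, without a filter and with the replicate block Tm7sf2 was lost, and with dated titles as a block Tm7sf2 and Hmgcs1. Acss1 was lost without B16-M replicate 1, and Tm7sf2 without M0-p20 replicate 0 or J365-p20 replicate 1.

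The parental lines of the 2 models differed far more than dormant and parental cells did. Between B16-M and M0-p20, 24 of 34 members passed (13 higher, 11 lower in melanoma), where 56.2% of 26759 genes passed (25.2% higher, 31.0% lower) and the median of all genes was -0.19. Of the sterol branch 7 genes were higher and 4 lower in B16-M, and of the fatty acid branch 3 and 5. Scd1 was at 1.17, 1.28 and 1.49 in B16-M and was at least 63.0-fold higher there than in M0-p20. Scd1 entered the fit only through the melanoma arrays, so it is counted among the 24 but given without a p. The bound sets the mean of B16-M against the lowest signals that counted as above background on the leukemia arrays, and it holds for the processed signals only. With normexp the difference of Scd1 was 4.17 on the log2 scale, under the 5.98 of the bound. Acss1 and Acss2 were the reverse. Acss1 was at -2.29, -2.39 and -2.25 in B16-M against 3.93, 4.30, 4.29 and 4.19, or 89.6-fold lower (-6.49 ± 0.18, adjusted p = 1.2e-16). Acss2 was at -0.81, -0.76 and -0.45 in B16-M against 1.68, 2.31, 2.34 and 2.06 in M0-p20, or 6.81-fold lower (-2.77 ± 0.14, adjusted p = 1.4e-12). Stard4 was at 1.36, 1.33 and 1.47 against 3.09, 3.35, 3.23 and 3.19, or 3.55-fold lower in melanoma. Npc1 was at 2.09, 2.22 and 2.49 against 0.52, 0.92, 0.63 and 0.44, or 3.11-fold higher, and Insig1 was 2.50-fold higher, at -0.02, 0.40 and 0.54 against -1.09, -0.74, -1.09 and -1.14. None of these 5 genes overlapped between the lines. Among the others, Ebp, Cyp51, Dhcr7, Tm7sf2, Fdps, Sc5d, Hmgcs1, Fasn, Acaca and Npc2 were higher in B16-M, and Srebf1, Fads1, Fads2, Mvd, Sqle, Elovl6, Hsd17b7 and Pmvk were higher in M0-p20. The genes that did not pass were Srebf2, Mvk, Idi1, Fdft1, Lss, Msmo1, Nsdhl, Acly, Scd2 and Abca1. The lines also differ in tissue of origin, and the medium of the leukemia cells is not given in the sources used here, so that lineage and culture cannot be told apart. Without B16-M replicate 0 the calls of Hmgcs1, Npc2 and Pmvk were lost, without B16-M replicate 1 that of Pmvk, without B16-M replicate 2 that of Hmgcs1, and without M0-p20 replicate 0 those of Hsd17b7 and Npc2. In a fit of only the lines compared, the calls of Npc2 and Pmvk were lost.

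**Figure D4:**
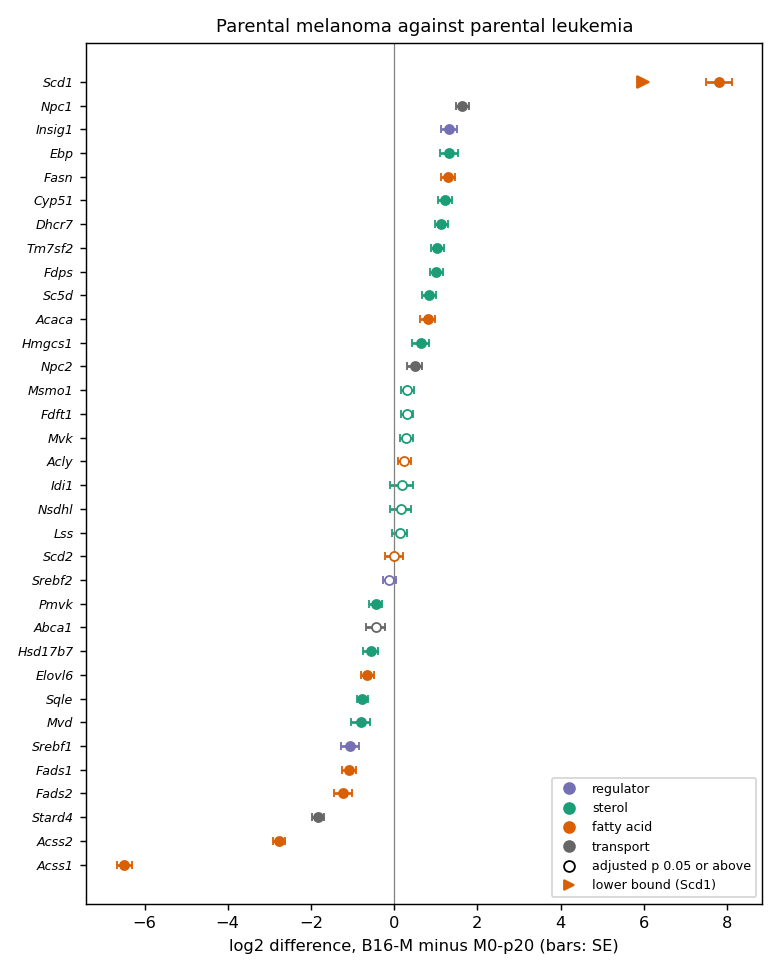
Log2 difference of B16-M minus M0-p20 (horizontal axis, bars are SE) for 34 genes, with open symbols for an adjusted p of 0.05 or above and a triangle for the lower bound of Scd1. Scd1 and Acss1 lie at opposite ends, far from the other genes.

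Other genes of the same pathways, 32 listed and not members, were examined in the same fits. In the 4 dormant melanoma lines against B16-M, 1, 2, 1 and 1 of those tested passed apart from Thrsp, against 3.60%, 5.57%, 5.03% and 3.71% of all genes. Slc25a1, the carrier that moves citrate from mitochondria for fatty acid synthesis, was at 0.93, 1.11 and 1.11 in B16-M, at 1.52, 1.69 and 1.66 in B16-D and at 1.56, 1.69 and 1.73 in B16-D-739. It rose by 0.58 ± 0.11 in B16-D (adjusted p = 0.013), by 0.63 ± 0.11 in B16-D-733 (adjusted p = 0.0028) and by 0.61 ± 0.11 in B16-D-739 (adjusted p = 0.0070, limma), and differed by 0.18 in B16-D-735. Me1, the malic enzyme that supplies NADPH, fell by 0.64 on the log2 scale in B16-D-733 (adjusted p = 0.048) and by 0.78 in B16-D-735 (adjusted p = 0.027). Thrsp, a lipogenic regulator also known as Spot 14, was above background on no B16-M or B16-D array and on all 3 of B16-D-735, at -3.96, -4.13 and -3.24. It was at least 2.18-fold higher in B16-D-735 than in B16-M and at least 1.96-fold higher than in B16-D. Thrsp entered the fit only through the lines where it was high, so these bounds are given without a p. In B16-D-733 only 1 of 4 arrays was above background for Thrsp and no fold can be given. Against B16-D, B16-D-735 had lower Scap, the escort of SREBP, by -0.48 ± 0.11 (adjusted p = 0.017, limma). In leukemia none of 31 passed, against 1.07% of all genes, with 4 at an unadjusted p under 0.05 (limma), and the farthest was Me1 at -1.86 ± 0.38 (adjusted p = 0.1). Between the parental lines 21 of 32 passed, Abcg1 among them, against 56.2% of all genes. Abcg1, a sterol exporter, was above background on no B16-M array and at least 66.1-fold lower there than in M0-p20, a bound given without a p since it entered the fit only through the leukemia arrays. Lpin1, a phosphatidate phosphatase, differed by -3.63 ± 0.33 and Slc25a1 by -2.74 ± 0.14 (adjusted p = 1.3e-08 and 1.8e-12, limma).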

How the data were processed

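RNA of 24 arrays (Agilent, 1 color, Cy3) was compared. The authors labeled low-input RNA, and the deposited intensity values come from Agilent Feature Extraction 10.7.3.1 with background subtracted. The deposited series table holds the same intensity values. Here log2 of the processed signal minus the 75th percentile of each array was used, with 2468 outlier spots dropped, spots of a probe averaged and 1 probe per gene, the one with the highest mean. Probes were matched to genes by RefSeq accession, with 1 probe for 18 members and several for 16. Genes had to be well above background on at least 3 arrays. Differences were tested with limma 3.58.1 (R 4.3.3), 2-sided, with Benjamini-Hochberg adjustment over all genes tested and a threshold of 0.05. The 16 melanoma arrays and the 7 leukemia arrays were fitted apart, and all 23 together for comparisons across models. The number of arrays limits the precision. Fits were tested on simulated data. The members and lists were chosen with earlier results of these data known. All members were named. The values of every array were given in each comparison for up to 6 that passed with the largest differences, and for Srebf1, Srebf2, Insig1, Hmgcs1, Sqle, Fasn, Scd1 and Abca1 in B16-D and J365-p20 in any case. Of the other pathway genes the 3 largest that passed were named, except that some genes are not reported here. Deviations of arrays with the same number from their line means correlated at 0.58, 0.35 and 0.82 between B16-D-733 and B16-M. They correlated at 0.74, 0.58 and 0.83 between B16-D-739 and B16-M, and only these 2 comparisons were read as paired. Between B16-D-735 and B16-M the values were 0.80, -0.34 and -0.31 (replicates 0, 2 and 1). Slide 1 held replicate 2 of B16-M, B16-D-733 and B16-D-739, and replicate 1 of B16-D-735. Whether the correlations follow the number or the slide was not tested. In B16-M and B16-D-739 the replicate number and the slide coincide and cannot be told apart. The batch labels were slide, which scan followed, and a date in the titles of 6 arrays, 3 of B16-D and 3 of B16-D-733. Alternatives were normexp (offset 50, on median signals, as mean signals were not used here), quantile normalization, other filters, the mean of all probes, blocks, B16-D replicate 2 kept, fits of only the lines compared, leaving out each array and, added after seeing the data, replicates 1 and 3 of B16-D-733 averaged.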

Additional observations from a re-analysis of the deposited data

Results flagged for a closer look

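Among 72 groups of 4 arrays tested, where chance marks about 1 in 20, 6 held an array far from the others. In M0-p20, replicate 1 was high for Insig1 (-0.74, others -1.14 to -1.09), Cyp51 (2.40, others 1.96 to 1.98) and Scd1 (-5.49, others -6.89 to -6.76, none above background), and replicate 0 for Elovl6 (3.02, others 2.45 to 2.49). In B16-D-733, Ebp was high on replicate 2 (5.62, others 5.03 to 5.11) and Dhcr7 low on replicate 3 (1.16, others 1.37 to 1.38).

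Differences between dormant lines passed the test for Dhcr7 (0.65), Abca1 (0.72), Stard4 (0.55) and Acss2 (0.46), all higher in B16-D-735 than in B16-D. The change with dormancy differed between melanoma and leukemia for Acss1 (1.18), Hmgcs1 (-1.30) and Tm7sf2 (-0.99).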

How the results depend on the processing

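The sterol median stayed below 0 in the 4 dormant melanoma lines under each alternative run. The count of called members moved more. In B16-D it was 7 with quantile normalization, 2 without a filter, 2 with the mean of all probes and 0 with only the lines compared. In B16-D-733 it was 10 with quantile normalization, 8 for probes above background on every array, 1 without a filter, 8 with the mean of all probes, 8 with slide as a block, 3 with dated titles as a block and 3 with only the lines compared. In B16-D-735 it was 6 with quantile normalization, 1 without a filter, 6 with slide as a block, 1 with B16-D replicate 2 and 0 with only the lines compared. In B16-D-739 it was 12 with quantile normalization, 11 with slide as a block, 5 with normexp, 5 without a filter and 3 with only the lines compared. For B16-D-735 against B16-D it was 2 with normexp, 1 without a filter, 1 with the mean of all probes and 0 with only the lines compared, and for the difference of melanoma and leukemia 1 with dated titles as a block. The fatty acid median became -0.17 in B16-D-733, 0.28 in B16-D-739 against B16-D and -0.10 in the difference of the models with dated titles as a block, and -0.64 between the parental lines for probes above background on every array. The cause was not tested, except that fits of only the lines compared hold fewer arrays. Scd1 in B16-D ran from -0.54 to 0.077 without 1 array, the latter without B16-D replicate 0.

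Leaving out 1 array at a time gave 0 to 5 calls in B16-D, 2 to 4 in B16-D-733, 0 to 2 in B16-D-735, 4 to 6 in B16-D-739, 1 to 4 in B16-D-735 against B16-D, 21 to 27 between the parental lines, 0 to 3 in the difference of the models, and 0 in the other 3 comparisons. Sterol medians ran from -0.51 to -0.39, -0.46 to -0.37, -0.31 to -0.089 and -0.67 to -0.51 in the 4 dormant lines against B16-M, 0.00 to 0.11, 0.16 to 0.29 and -0.21 to -0.09 for B16-D-733, B16-D-735 and B16-D-739 against B16-D, -0.08 to 0.13 in leukemia, 0.25 to 0.40 between the parental lines and -0.55 to -0.29 in the difference. Fatty acid medians ran from -0.18 to 0.11, -0.06 to 0.06, -0.05 to 0.07, -0.12 to 0.090, -0.03 to 0.23, -0.12 to 0.20, -0.05 to 0.21, -0.22 to -0.09, -0.37 to -0.30 and -0.0101 to 0.31 in the same order.

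With the replicate number as a block, 6 members passed in B16-D-733 and 10 in B16-D-739. In comparisons not read as paired, the block gave 4 calls in B16-D, 3 in B16-D-735 and 3 in B16-D-735 against B16-D. It gave 0 in leukemia, 24 between the parental lines and 2 in the difference of the models.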
